A study of Mus musculus with 16 samples.

Results

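The genes of mitotic entry, the spindle and cytokinesis were followed as 60 named genes out of 20622 in the total RNA tables. They were taken by symbol, with earlier results of these data known, and were ordered into 10 groups by role. All 60 had counts in ribosome-protected fragments (RPFs) and in total RNA, and all 60 passed the filter on low counts in both, so no member was lost before testing. KM cells were grown from the lung tumours of 1 male mouse that carried *Rosa26* LSL-MYC/LSL-MYC alleles, so both lines compared here come from the same animal and share this transgene. KM_NTC cells carry a lentiviral Cas9 with a non-targeting guide. KM_4A2cr cells carry the same vector with a guide against the coding region of *Eif4a2*, a DEAD box helicase of translation, and are a pool of clones without detectable eIF4A2 protein on western blots. Cells were untreated, and each line had 4 RPF libraries and 4 total RNA libraries, with both kinds made from the same lysate of an independent experiment.

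Entry into mitosis is set off by cyclin B and CDK1, which are switched on by CDC25 phosphatases and held back by WEE1, with PLK1 and the Aurora kinases acting alongside. Chromosomes are then compacted by condensin and attached to spindle microtubules through the kinetochore. The spindle checkpoint holds the anaphase-promoting complex (APC/C) inactive until all chromosomes are attached, after which CDC20 lets the complex mark securin and cyclin B for destruction and separase cuts cohesin. Messenger RNAs of most of these proteins are made in G2 and mitosis, so their level in a growing culture is widely read as a measure of how many cells are dividing.

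RPF libraries held between 4512403 and 9621848 counts, and total RNA libraries between 5350920 and 9312624. The lowest count of any of the mitotic genes in a library was 3, for the kinetochore gene *Spc24*. Epithelial markers were present (8 of 8, with a sum of 9284 to 15059 RPF CPM, counts scaled to library size), whereas the surfactant genes *Sftpc* and *Sftpb*, which define alveolar type II cells, were at 0 counts in all 8 total RNA libraries. The other alveolar type II markers differed. *Abca3* averaged 104 total RNA CPM in KM_NTC and 159 in KM_4A2cr, and *Lamp3* 1.81 and 1.96. *Sftpa1*, *Sftpd*, *Nkx2-1* and *Slc34a2* averaged at most 0.231 total RNA CPM in either line. Of the leukocyte markers, the lysosomal gene *Cd68* alone was high, at 777 and 695 RPF CPM in replicate 4 of KM_NTC and KM_4A2cr against 74.0 to 126 in the other replicates. The remaining leukocyte markers summed to at most 3.5 RPF CPM in any library, with *Lyz2* and *Cd3e* at 0 counts in total RNA, and fibroblast markers summed to at most 21.4 CPM. *Eif4a2* RPFs were lower in 4 of 4 pairs, with a log2 fold change of -0.49 (SE, standard error, 0.15, edgeR adjusted p = 0.0941 over all genes by Benjamini-Hochberg). Its total RNA was also lower in 4 of 4 pairs, at -0.18 (SE 0.13), but did not pass (edgeR adjusted p = 0.504). Replicate 4 also stood apart in *Eif4a2* itself, at 388.7 and 345.7 RPF CPM where the other replicates had 51.0 to 122. The counts over the 60 genes are therefore given with and without replicate 4, and what sets this replicate apart was not tested.

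Footprints of the mitotic genes were lower in KM_4A2cr than in KM_NTC cells. Of the 60 genes, 15 fell in RPFs and 0 rose at an adjusted p of 0.1 (edgeR quasi-likelihood, blocked on replicate, Benjamini-Hochberg over the 10291 genes tested). Among all genes tested, 3.72% fell and 6.6% rose, and among the mitotic genes 25% fell. DESeq2 called 13 lower and 0 higher, the calls it did not make being *Bub1* (DESeq2 adjusted p = 0.117) and *Kif22* (0.119). At an unadjusted p under 0.05 edgeR had 25 lower and 0 higher, where 10.2% of all genes were lower and 13.2% higher. The log2 fold change was below 0 for 54 of the 60, with a median of -0.33 beside -0.01 for all genes and a range from -0.87 to 0.35. A lower value in all 4 replicate pairs was seen for 29 of them, where 16.0% of all genes did the same. Without the replicate block 0 of the 60 passed in RPFs, as did 0 of all genes. In a bulk lysate, fewer cells in G2 and mitosis and less of each mRNA per such cell cannot be told apart.

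The level of the whole group varied more between experiments than between cell lines. Summed over the 60 genes, RPFs came to 2335, 4531, 3566 and 2233 CPM in KM_NTC replicates 1 to 4, and to 2172, 3334, 2360 and 2011 in KM_4A2cr. The KM_4A2cr library was the lower of its pair each time, at 0.931, 0.736, 0.662 and 0.901 of its partner, while the KM_NTC libraries differed among themselves by a factor of 2.03. Total RNA had the same arrangement, with ratios of 0.979, 0.843, 0.681 and 0.928 and a factor of 1.85 among the KM_NTC libraries. The 2 lines overlapped for every one of the 60 genes in RPFs and in total RNA. Of all genes, 1.15% in RPFs and 1.03% in total RNA had every KM_4A2cr library below every KM_NTC library.

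**Figure D1:**
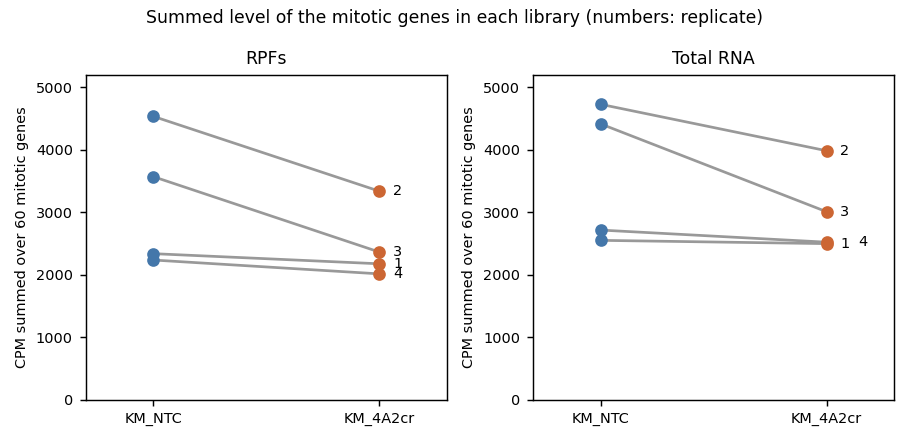
CPM summed over the 60 mitotic genes in each library, for RPFs (left) and total RNA (right), with a line joining the KM_NTC and KM_4A2cr libraries of a replicate and its number on the right. Every line slopes down, most steeply in replicates 2 and 3, and the KM_NTC libraries span 2233 to 4531 CPM in RPFs.

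Many genes of this programme carry a short promoter element, the cell cycle genes homology region (CHR, TTTGAA), which the DREAM and MuvB complexes bind, often next to CCAAT boxes bound by NF-Y. RefSeq promoters (GRCm38.p6, from 250 bases before to 50 bases after the start) were at hand for 50 of the 60 genes. TTTGAA was found on either strand in 36 of the 50, or 72%, against 20.2% of 27025 genes with a promoter of that length. CCAAT on either strand was in 72% against 41.1%, and both together in 62% against 7.97%. Of the 13 genes that fell in RPFs and had a promoter, 8 held TTTGAA. Windows of 26 bases around it are shown for 4 genes that fell (*Cdc20*, *Espl1*, *Ncapg*, *Kif22*) and 4 that did not pass (*Cdk1*, *Top2a*, *Ube2c*, *Mki67*), to let the element be compared between them. Each is read 5′ to 3′ on the strand of the gene, and the capitals mark TTTGAA or its reverse complement TTCAAA.
Cdc20 (chr4:118437346-118437371, minus strand): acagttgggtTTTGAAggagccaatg
Espl1 (chr15:102296256-102296281, plus strand): actagggataTTTGAAaggaggtgct
Ncapg (chr5:45669885-45669910, plus strand): gcgatagttgTTTGAAaactctggcg
Kif22 (chr7:127042422-127042447, minus strand): gccccggtaaTTCAAAagagagaagc
Cdk1 (chr10:69352968-69352993, minus strand): gattggctccTTTGAAcgtctacgtg
Top2a (chr11:99024197-99024222, minus strand): tagataaaggTTCAAAtgaaactagg
Ube2c (chr2:164769890-164769915, plus strand): agggttgcaaTTCAAAcgcgggcggc
Mki67 (chr7:135716462-135716487, minus strand): gccgttttggTTTGAAtcgggcgggc
Counted from the start as 0, the first capital lies at -18 in *Cdc20*, -27 in *Espl1*, -30 in *Ncapg*, -17 in *Kif22*, -71 in *Cdk1*, -23 in *Top2a*, -29 in *Ube2c* and -98 in *Mki67*. A further match, not printed, lies at -15 in *Cdk1*, -215 in *Kif22*, -179 in *Top2a* and -116 in *Mki67*. In *Cdk1* alone the match that is not printed lies nearer to the start than the printed one. The element is thus in genes on both sides of the threshold, and a match of letters is not evidence of binding.

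Among the 11 cyclins, kinases and phosphatases of mitotic entry, *Ccnb1*, *Plk1* and *Aurka* fell in RPFs and 0 rose. *Ccnb1* (ENSMUSG00000041431.17), cyclin B1, had 122, 255, 225 and 93.1 RPF CPM in KM_NTC replicates 1 to 4 and 84.9, 163, 116 and 62.7 in KM_4A2cr. Each KM_4A2cr library lay below its partner, but the values of the 2 lines overlapped, with replicates 2 and 3 high in both. The log2 fold change was -0.67 (SE 0.13, edgeR adjusted p = 0.0243). *Plk1* (ENSMUSG00000030867.8), a kinase of centrosome maturation and mitotic exit, had 31.1, 57.1, 40.1 and 20.1 RPF CPM in KM_NTC and 26.3, 31.4, 19.4 and 7.00 in KM_4A2cr. Replicate 4 was the lowest library of each line and also gave the widest gap, a log2 difference of -1.49 against -0.24 in replicate 1. The *Plk1* log2 fold change was -0.85 (SE 0.19, edgeR adjusted p = 0.0409).

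*Aurka* (ENSMUSG00000027496.16), the Aurora kinase of the spindle poles, had 50.0, 94.2, 75.2 and 43.0 RPF CPM in KM_NTC and 33.6, 50.3, 32.8 and 35.3 in KM_4A2cr. The KM_4A2cr libraries of replicates 1, 3 and 4 lay close together, below all KM_NTC libraries, and only replicate 2 overlapped with them. Its log2 fold change was -0.75 (SE 0.16, edgeR adjusted p = 0.0370). *Cdk1* (ENSMUSG00000019942.14), the catalytic partner of cyclin B1, had 151, 264, 239 and 91.9 RPF CPM in KM_NTC and 147, 192, 142 and 78.6 in KM_4A2cr. It was lower in 4 of 4 pairs, barely so in replicate 1, and did not pass (log2 fold change -0.37, SE 0.15, edgeR adjusted p = 0.173). The other cyclins *Ccna2* and *Ccnb2* stood at -0.33 and -0.37 on the RPF log2 scale, the activating phosphatases *Cdc25b* and *Cdc25c* at -0.21 and -0.26, and the inhibitory kinase *Wee1* at -0.01. *Plk4*, the kinase of centriole duplication, had the highest value of all 60 genes, 0.35 (edgeR adjusted p = 0.313), and did not pass.

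**Figure D2:**
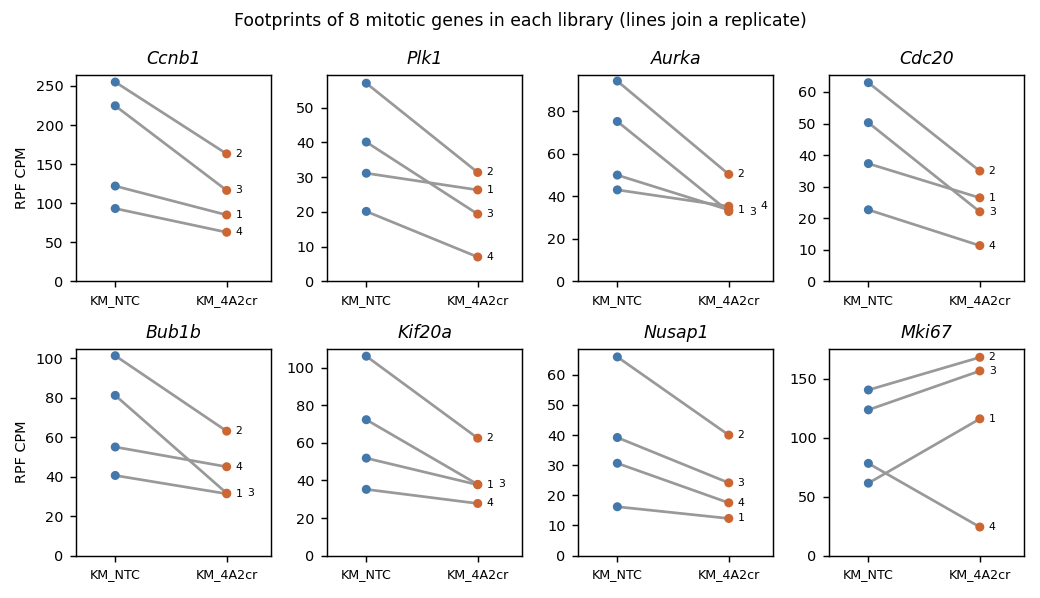
RPF CPM of 8 mitotic genes in each library, with a line joining the KM_NTC and KM_4A2cr libraries of a replicate and its number on the right; every axis starts at 0. All lines slope down for 7 genes, and for *Mki67* those of replicates 1 to 3 rise and that of replicate 4 falls from 78.3 to 24.2 CPM.

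The lowest footprint values were in the small group around the APC/C, where 3 of 4 genes fell and the median RPF log2 fold change was -0.69. *Cdc20* (ENSMUSG00000006398.16), the activator of the complex, had 37.3, 62.9, 50.3 and 22.7 RPF CPM in KM_NTC and 26.4, 34.9, 22.0 and 11.3 in KM_4A2cr. Replicate 4 was lowest in both lines, and each KM_4A2cr library was below its partner, with the narrowest gap in replicate 1, a log2 difference of -0.49. Its log2 fold change of -0.87 was the lowest of all 60 genes. Separase, *Espl1*, which cuts cohesin, stood at -0.77, and securin, *Pttg1*, which holds separase inactive, at -0.60 (edgeR adjusted p = 0.0963). *Ube2c*, the ubiquitin-conjugating enzyme of the APC/C and the most abundant of the 60 mRNAs at 230 TPM in KM_NTC, was at -0.38 and did not pass. *Espl1* was the scarcest, at 2.84 TPM, so the group spans the whole range of mRNA levels found among these genes.

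In the spindle checkpoint and centromere cohesion group, *Bub1b* and *Bub1* fell in RPFs, and all 6 genes were below 0. *Bub1b* (ENSMUSG00000040084.10), which encodes the BUBR1 protein of the mitotic checkpoint complex, had 40.6, 101, 81.1 and 55.0 RPF CPM in KM_NTC and 31.3, 63.0, 31.6 and 45.0 in KM_4A2cr. Replicate 3 showed the widest gap, a log2 difference of -1.35, and replicates 1 and 4 the narrowest, -0.37 and -0.29. Its log2 fold change was -0.68 (SE 0.18, edgeR adjusted p = 0.0713). The kinase *Bub1* lay at the threshold, with -0.46 (adjusted p = 0.0996 by edgeR and 0.117 by DESeq2). Just outside it came the kinesin *Kif18b* at -0.60 (adjusted p = 0.110) and the transcription factor *Mybl2* at -0.48 (adjusted p = 0.113, both by edgeR). The checkpoint kinase *Ttk* stood at -0.59, the cohesin protector *Sgo1* at -0.34, and *Mad2l1* and *Bub3* at -0.26 and -0.21, and none of these passed.

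Of the 7 genes of the kinetochore and centromere among the 60, none passed in RPFs. By edgeR and by DESeq2 0 were called, and 0 had an unadjusted p under 0.05 by edgeR. The median log2 fold change was -0.18. Of all genes tested, edgeR called 3.72% lower and 6.6% higher, so 0 of 7 is near these shares. At an unadjusted p under 0.05 it had 10.2% of all genes lower and 13.2% higher. *Spc24* (ENSMUSG00000074476.7), a subunit of the NDC80 complex, had 8.24, 16.0, 19.3 and 3.36 RPF CPM in KM_NTC and 7.25, 14.6, 13.2 and 0.808 in KM_4A2cr, the last from 3 counts. In total RNA replicate 4 was instead the highest library of each line, with 12.5 and 18.9 CPM beside 4.84 to 6.48 in the others. Its RPF log2 fold change of -0.40 had a standard error of 0.21 (edgeR adjusted p = 0.295). Its partner *Spc25* was at 0.02, and the centromeric histone *Cenpa* at 0.01. In total RNA 6 of the 7 genes were below 0, with a median of -0.25. There edgeR called 0 of them, and 1.78% of all genes lower.

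The 4 genes of the chromosomal passenger complex, which corrects faulty attachments and later marks the midzone, gave 0 RPF calls by edgeR and by DESeq2, with 1 at an unadjusted p under 0.05 by edgeR. That was its kinase *Aurkb* (ENSMUSG00000020897.13), with 20.6, 36.9, 30.0 and 17.4 RPF CPM in KM_NTC and 21.3, 25.1, 16.0 and 12.9 in KM_4A2cr. It was lower in 3 of 4 pairs, with replicate 1 level (log2 fold change -0.46, SE 0.17, edgeR adjusted p = 0.150). *Birc5*, *Cdca8* and *Incenp* had RPF log2 fold changes of -0.30, -0.10 and 0.04. With 3.72% of all genes called lower and 6.6% higher by edgeR, 0 of 4 is near these shares. At an unadjusted p under 0.05 the shares were 10.2% lower and 13.2% higher. Whether these groups differ from the group around the APC/C was not tested.

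All 11 mitotic kinesins were below 0 in RPFs, with a median log2 fold change of -0.35, and *Kif20a* and *Kif22* fell. *Kif20a* (ENSMUSG00000003779.17), a motor of the midzone and of cytokinesis, had 51.9, 106, 72.3 and 35.2 RPF CPM in KM_NTC and 37.7, 62.5, 37.9 and 27.7 in KM_4A2cr. Each KM_4A2cr library was the lower of its pair, with replicate 2 the highest of both lines (log2 fold change -0.64, SE 0.14, edgeR adjusted p = 0.0393). *Kif22*, a motor that binds chromosome arms, stood at -0.58 (adjusted p = 0.0941 by edgeR and 0.119 by DESeq2). *Kif2c*, a microtubule depolymerase, had a similar RPF value of -0.65 with a larger standard error, 0.26, and did not pass (edgeR adjusted p = 0.167). *Kif11*, which pushes the spindle poles apart, was at -0.30, and *Kif15* was the highest of the kinesins at -0.09.

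Among condensin, topoisomerase II and chromosome surface genes, the condensin I subunits *Ncapg* and *Ncaph* fell in RPFs. *Ncapg* (ENSMUSG00000015880.14) had 54.6, 114, 75.1 and 25.4 RPF CPM in KM_NTC and 46.1, 74.5, 45.6 and 11.8 in KM_4A2cr. Replicate 4 was the lowest of both lines and had the widest gap (log2 fold change -0.63, SE 0.15, edgeR adjusted p = 0.0540). The third non-SMC subunit of condensin I, *Ncapd2*, was at -0.33, and the SMC subunits that both condensins share were at -0.36 (*Smc2*) and 0.04 (*Smc4*), none of which passed. *Top2a* (ENSMUSG00000020914.18), the topoisomerase that untangles sister chromatids, had 97.5, 245, 139 and 80.6 RPF CPM in KM_NTC and 98.5, 164, 88.9 and 74.9 in KM_4A2cr. Only replicates 2 and 3 showed a clear gap, and it did not pass (log2 fold change -0.33, SE 0.15, edgeR adjusted p = 0.223).

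*Mki67* (ENSMUSG00000031004.9), which encodes the Ki-67 protein that coats mitotic chromosomes and is the usual stain for dividing cells, had a different pattern over the pairs. It had 61.5, 141, 124 and 78.3 RPF CPM in KM_NTC and 116, 168, 157 and 24.2 in KM_4A2cr. The KM_4A2cr library was higher in replicates 1 to 3 and lower in replicate 4, and the log2 fold change over all 4 was 0.04 (SE 0.34, edgeR adjusted p = 0.957). Without replicate 4 it was 0.50 and passed as higher, the one mitotic gene to do so in RPFs. Total RNA of *Mki67* was 179, 437, 460 and 253 CPM in KM_NTC and 273, 478, 382 and 151 in KM_4A2cr, higher in replicates 1 and 2 only.

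In spindle assembly, *Nusap1* and *Tpx2* fell in RPFs and all 5 genes were below 0, with a median log2 fold change of -0.61. *Nusap1* (ENSMUSG00000027306.16), which bundles microtubules near chromosomes, had 16.2, 65.9, 39.2 and 30.6 RPF CPM in KM_NTC and 12.3, 40.0, 24.1 and 17.5 in KM_4A2cr. The order of the replicates was the same in both lines, with a log2 difference of -0.39 to -0.80 within pairs (log2 fold change -0.66, SE 0.13, edgeR adjusted p = 0.0287). *Tpx2*, the activator of Aurora A on the spindle, stood at -0.62. *Aspm*, of the spindle poles, had a like RPF value of -0.61 but a standard error of 0.29 and did not pass, the midzone bundler *Prc1* was at -0.17, and *Hmmr*, which tethers microtubules at the poles, was the highest of the group at -0.12.

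Of the 3 cytokinesis genes, *Ect2* fell in RPFs. *Ect2* (ENSMUSG00000027699.20), the exchange factor that activates RhoA at the cleavage furrow, had 71.6, 141, 104 and 61.3 RPF CPM in KM_NTC and 55.3, 101, 55.8 and 45.8 in KM_4A2cr. Each KM_4A2cr library was lower than its partner (log2 fold change -0.54, SE 0.14, edgeR adjusted p = 0.0596). Its binding partner *Racgap1* and the scaffold *Anln* both stood at -0.25 and did not pass.

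The 2 transcription factors that drive this programme gave 0 RPF calls by edgeR and by DESeq2, with 1 at an unadjusted p under 0.05 by edgeR. Among all genes tested, edgeR called 3.72% lower and 6.6% higher, so 0 of 2 is near these shares. At an unadjusted p under 0.05 they were 10.2% and 13.2%. *Foxm1* (ENSMUSG00000001517.15) had 21.1, 20.5, 27.4 and 10.7 RPF CPM in KM_NTC and 19.7, 19.6, 20.5 and 7.81 in KM_4A2cr. Both lines were lowest in replicate 4, and the pairs of replicates 1 and 2 were nearly level (log2 fold change -0.24, SE 0.14, edgeR adjusted p = 0.352). *Mybl2* (ENSMUSG00000017861.12), B-MYB, had 21.2, 15.3, 15.9 and 3.99 RPF CPM in KM_NTC and 16.5, 9.35, 12.8 and 2.42 in KM_4A2cr. It fell in total RNA, with 42.4, 29.2, 24.5 and 7.66 CPM in KM_NTC and 29.9, 17.8, 18.7 and 4.15 in KM_4A2cr (log2 fold change -0.58, SE 0.14, edgeR adjusted p = 0.0563).

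**Figure D3:**
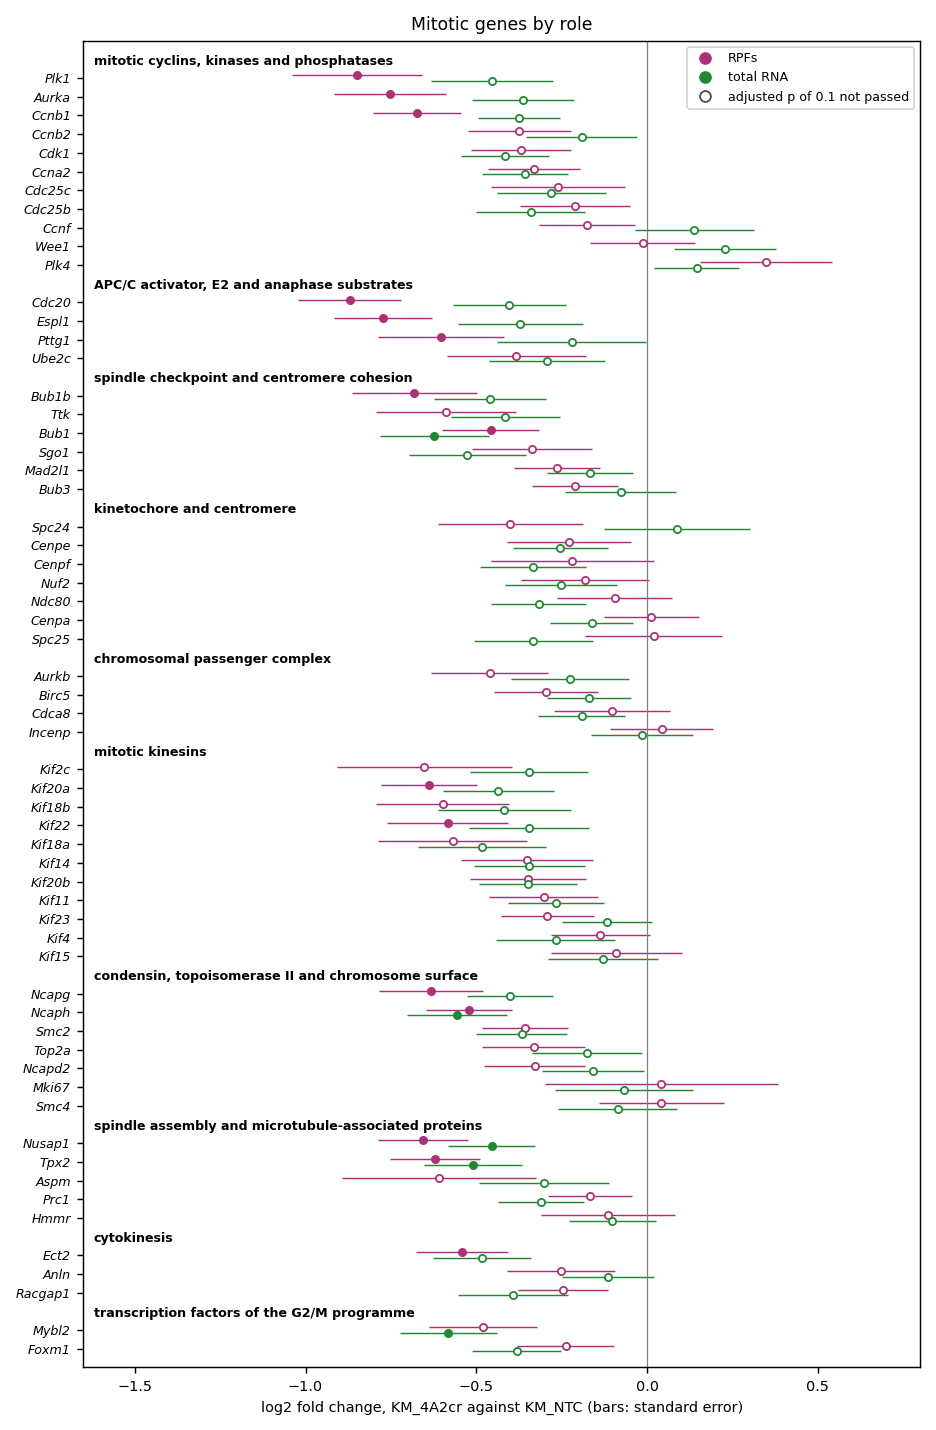
Log2 fold change of KM_4A2cr against KM_NTC for the 60 mitotic genes in RPFs and total RNA, grouped by role, with bars of 1 standard error; filled points passed the adjusted p of 0.1 by edgeR. RPF points are filled for 15 genes and total RNA points for 5, and all filled points lie left of 0.

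The 4 experiments did not contribute alike. The median log2 difference of the 60 genes in RPFs was -0.10, -0.43, -0.54 and -0.36 in pairs 1 to 4, and in total RNA it was -0.09, -0.29, -0.58 and -0.10. Replicate 3 was the lowest in both and replicate 1 the closest to 0. All 15 genes that fell in RPFs were lower in 4 of 4 pairs, which picking them by a test on these same pairs favours. With 3 pairs, 7 of the 60 genes fell without replicate 1, 0 without replicate 2 and 0 without replicate 3. Of the 10237 genes tested without replicate 1, 75 fell and 157 rose. Among all genes tested, 29 fell and 94 rose without replicate 2, and 3 fell and 29 rose without replicate 3. Without replicate 4, 30 of the mitotic genes (50%) fell and 1 rose, in a table where 14.3% of genes fell and 19.1% rose. Of the role groups, all 4 genes of the group around the APC/C then fell (*Cdc20*, *Ube2c*, *Pttg1* and *Espl1*). So did 6 of 11 genes of mitotic entry and 5 of 11 kinesins, while the kinetochore group stayed at 0 of 7 in RPFs. In total RNA without replicate 4, 4 of the 7 kinetochore genes fell. There 7 of 11 genes of mitotic entry and 5 of 11 kinesins fell, and 12.0% of all genes. The median over the 60 genes lay between -0.44 and -0.21 in these RPF settings, and its difference from the median of all genes between -0.45 and -0.24.

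**Figure D4:**
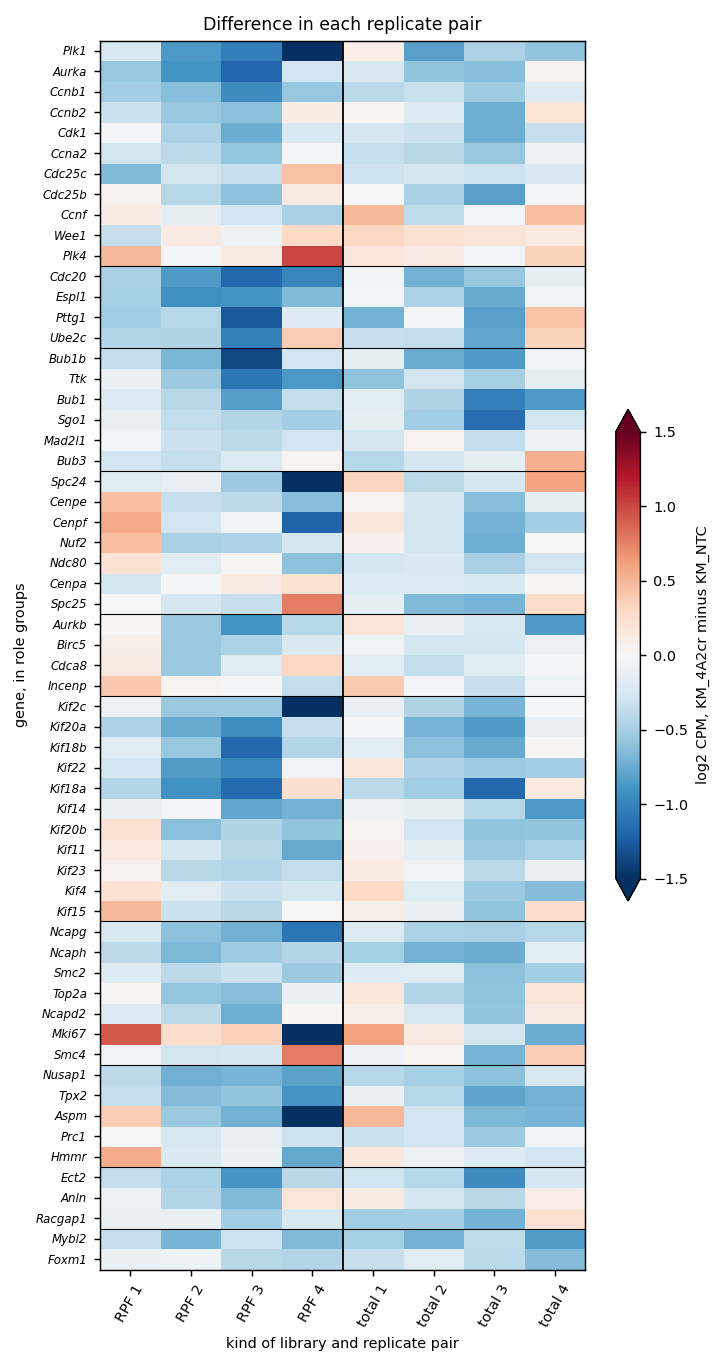
Log2 difference in CPM between the KM_4A2cr and KM_NTC library of each replicate pair for the 60 mitotic genes (rows, in role groups divided by lines), in RPFs (left) and total RNA (right); blue is lower in KM_4A2cr, and values past 1.5 share the end colour. Pair 3 is blue for most genes in both kinds, pair 1 is pale, and pair 4 mixes strong blue and red.

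Total RNA of the mitotic genes was lower by about the same amount, with fewer calls. Of the 60 genes, 5 fell and 0 rose (edgeR, adjusted p of 0.1 over 10880 genes), where 1.78% of all genes fell and 4.35% rose. DESeq2 called 4 lower and 0 higher, without *Ncaph* (DESeq2 adjusted p = 0.131) and *Nusap1* (0.160) but with *Ect2* (0.0924). At an unadjusted p under 0.05 edgeR had 24 lower and 0 higher, where 7.39% of all genes were lower and 10.9% higher. Without the block, without replicate 2 or without replicate 3, 0 were called lower in total RNA. Without replicate 4, 36 (60%) were, in a table where 12.0% of genes fell and 17.8% rose. With all 4 replicates the median log2 fold change was -0.33 beside 0.01 for all genes, with 56 of 60 below 0. The 5 were *Bub1* (-0.62), *Mybl2* (-0.58), *Ncaph* (-0.56), *Tpx2* (-0.51) and *Nusap1* (-0.46). *Wee1*, the inhibitory kinase, was the single gene higher in all 4 pairs in total RNA, at 0.23 (edgeR adjusted p = 0.467), and 25 genes were lower in all 4, against 13.0% of all genes tested.

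Footprints per mRNA, the change in RPFs relative to that in total RNA of the same lysates, were not called for any of the 60 genes. Of 9989 genes tested, 1.0% fell and 1.87% rose by edgeR, and among the mitotic genes 0 did either. At an unadjusted p under 0.05, 6 of the 60 were lower and 1 higher, or 11.7% together, where 6.59% of all genes were lower and 7.52% higher; DESeq2 was not run on this ratio. The median log2 value was -0.07 beside -0.02 for all genes. *Aurka* came closest, at -0.39 (SE 0.12, edgeR adjusted p = 0.106), and was lower in 4 of 4 pairs. Its log2 ratio of RPF to total RNA CPM was 0.77, 0.79, 0.78 and 0.46 in KM_NTC replicates 1 to 4 and 0.42, 0.48, 0.23 and 0.11 in KM_4A2cr, so that the lines overlapped only through replicate 4 of KM_NTC. *Cdc20* (-0.43), *Espl1* (-0.40) and *Pttg1* (-0.38) gave the group around the APC/C a median of -0.39, the lowest of the 10 groups. For 17 APC/C subunits and regulators outside the 60 the median was -0.05. *Ccnb1* was at -0.30 and its partner *Cdk1* at 0.04. For the 15 genes that fell in RPFs, the median in total RNA was -0.44 on the log2 scale, and for the other 45 it was -0.27. Their RPF medians, -0.64 and -0.26, follow from how the 2 sets were divided.

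**Figure D5:**
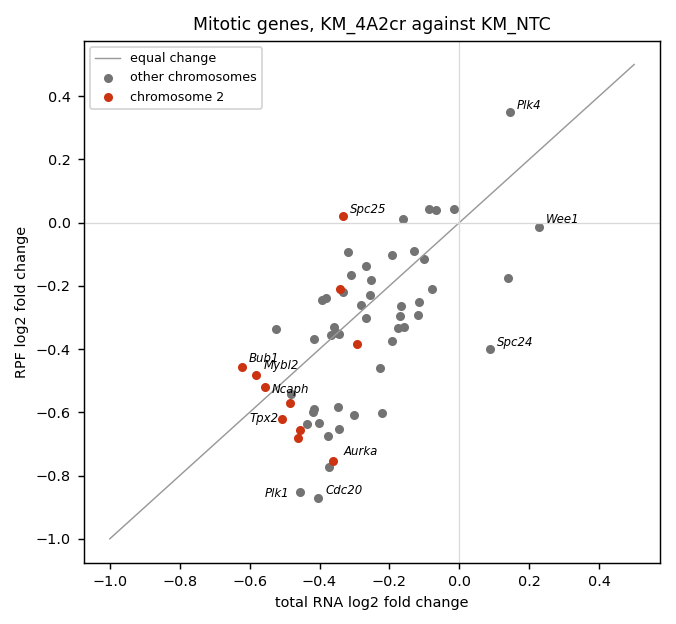
RPF log2 fold change (vertical) against total RNA log2 fold change (horizontal) of the 60 mitotic genes, KM_4A2cr against KM_NTC, with genes on chromosome 2 in red and a line of equal change; both axes use the same KM_NTC and KM_4A2cr lysates. Most genes lie below 0 on both axes, *Cdc20*, *Plk1* and *Aurka* below the line, and *Bub1*, *Mybl2* and *Ncaph* farthest left.

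All 5 genes that fell in total RNA lie on chromosome 2, by the RefSeq annotation of GRCm38.p6. Of the 60 genes, 11 are there, and 6 of them fell in RPFs (*Aurka*, *Bub1*, *Bub1b*, *Ncaph*, *Nusap1*, *Tpx2*), with a median RPF log2 fold change of -0.52. Genes of chromosome 2 that are not on the list were also low, with a median of -0.21 over 822 genes and 9.61% called lower, against 2.83% of 9203 such genes elsewhere. On the other chromosomes 9 of the 49 mitotic genes, or 18.4%, fell in RPFs with a median of -0.30. Without replicate 4, RPFs of 9 of the 11 and 21 of the 49 fell, where 30.2% and 12.4% of genes not on the list did. In total RNA 0 of the 49 were called by edgeR, 1 (*Ect2*) by DESeq2, and 16 were lower at an unadjusted p under 0.05 by edgeR, with a median of -0.27. Among genes not on the list, 4.84% of those on chromosome 2 and 1.39% of those elsewhere fell in total RNA, so a count of 0 in 49 is near the share off chromosome 2. The lower footprints were therefore measured on and off chromosome 2, while the total RNA calls were all on it. The part of the chromosome in the values of its 11 mitotic genes was not tested. With libraries scaled by size alone, 16 of the 24 genes called in total RNA lay on other chromosomes, as did 7 of 14 without the filter on low counts and 25 of 36 without replicate 4. Of genes not on the list, 29.9% on chromosome 2 and 9.57% elsewhere fell in total RNA without replicate 4.

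A further 103 genes of mitosis (other APC/C subunits, entry regulators, kinetochore and checkpoint genes, cohesin and condensin II, and other spindle and cytokinesis genes) were taken as company for the 60. In RPFs 100 of them were tested, of which 11 fell and 0 rose by edgeR, where 3.72% of all genes fell, and 10 fell and 0 rose by DESeq2. At an unadjusted p under 0.05, 21 were lower and 2 higher, where 10.2% and 13.2% of all genes were. Without replicate 4, 31 fell and 4 rose, where 14.3% and 19.1% of all genes did. Their median log2 fold change was -0.19. The median was nearest 0 for cohesin and condensin II, at -0.03 with 0 of 15 called by edgeR. For the APC/C subunits and regulators outside the 60 it was -0.11, with 1 of 17 called lower and 0 higher. The median was lowest for the other spindle and cytokinesis genes, at -0.30 with 6 of 24 called. Of the 12 genes on chromosome 2, 8 fell in RPFs, where 10.2% of all genes there did. Of the 88 elsewhere 3 fell, or 3.41%, close to the 2.91% of all genes off chromosome 2. The median of these 88 was -0.16, beside 0.007 for all genes off chromosome 2. Without replicate 4, 20 of the 88 (22.7%) fell and 4 rose. Among genes off chromosome 2 that are not among the 60, 12.4% then fell and 19.8% rose. *Sapcd2*, a regulator of spindle orientation, had the lowest value of these genes at -1.14 in RPFs, followed by *Fam83d* (-0.86) of the spindle, the kinetochore scaffold *Knl1* (-0.83), *Oip5* of centromere assembly (-0.77) and *Ckap2l* of spindle poles (-0.68), all on chromosome 2. *Knstrn* and *Ckap5*, also on chromosome 2, were at -0.50 and -0.47. Off it, the formin *Diaph3* was at -0.54 in RPFs and -0.53 in total RNA, and the centrosomal kinase *Nek2* at -0.53 in RPFs. In total RNA 3 of 102 fell (*Ckap2l*, *Arhgap11a* and *Diaph3*) and 0 rose by edgeR, where 1.78% of all genes fell, with 1 higher at an unadjusted p under 0.05 and 0 higher by DESeq2. In footprints per mRNA 1 of 100 fell and 1 rose by edgeR, where 1.0% and 1.87% of all genes did. *Ska3* of the kinetochore fell, at -0.61 (edgeR adjusted p = 0.0900). The APC/C subunit *Anapc5* rose, at 0.46 (edgeR adjusted p = 0.0564).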

How the data were processed

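Ribosome footprints and cytoplasmic RNA of KM_NTC and KM_4A2cr cells were sequenced from the same lysates in 4 experiments on different days. The RPF values deposited by the authors are counts per transcript over its coding sequence, after trimming with cutadapt 1.18, alignment to 1 protein-coding transcript per gene and collapsing of duplicates with UMI-tools 1.0.1. The total RNA values deposited by the authors are expected counts and TPM per isoform from RSEM 1.3.3 after alignment with Bowtie2 2.3.5.1 (versions from the submitters' processing notes). The annotation was GENCODE vM27. Expected counts were summed per gene and rounded, and an RPF transcript not listed in a library was taken as 0. Fragments that match near-identical gene copies cannot be assigned with certainty. TPM was used only for levels between genes.

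Tests were run in R 4.3.3 with edgeR 4.0.16 (filterByExpr, TMM, glmQLFit and glmQLFTest) on all genes, with cell line and replicate as terms and a Benjamini-Hochberg adjusted p of 0.1. The study's methods do not name the terms of its own model. Footprints per mRNA were the line-by-kind interaction in 1 model over 16 libraries with a term for each lysate. CPM values are TMM-normalised, log2 CPM used a prior count of 2, and scaling within a library leaves no trace of a change in all footprints or all RNA. The replicate numbers mark experiments on different days, and libraries of the same number deviated together from their line's mean (correlations across genes of 0.575 to 0.782 in RPFs and 0.611 to 0.756 in total RNA). p-values measure the spread between experiments on 1 pair of lines. Scripts were tested on simulated data. Alternatives were no replicate block, DESeq2 1.42.0, 3 other scalings, 2 other filters, a threshold of 0.05, the RPF isoform only in total RNA, and each replicate left out.

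The 60 genes, their groups and the other 103 genes were chosen with earlier results of these data known. Values in every library are given for 9 well-known genes (*Ccnb1*, *Cdk1*, *Plk1*, *Aurka*, *Aurkb*, *Cdc20*, *Top2a*, *Mki67*, *Foxm1*) and for the gene with the smallest RPF p in each group. Fold changes are given for every gene that passed in RPFs or total RNA and for the highest RPF value in each group. Of the other 103 genes, the 10 with the smallest p among those that passed in RPFs or total RNA are named. Those that passed in footprints per mRNA are named as well. Further genes named with a fold change were added for their role after values were seen. Promoters came from RefSeq (GRCm38.p6), and chromosomes from its gene table, with no gene coordinates since the files use another annotation. Part of the genotype of the cells is not reported here.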

Additional observations from a re-analysis of the deposited data

Results flagged for a closer look

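Among the 16 genes given in every library, 96 groups of 4 values were searched for a library far from the other 3 by Dixon's criterion, and 8 stood out. Chance marks about 1 group in 20. In KM_4A2cr replicate 2 *Aurka*, *Cdc20* and *Top2a* values were the highest of their line, at 50.3 RPF CPM, 15.4 total RNA CPM and 197 total RNA CPM. In replicate 4 of KM_4A2cr, *Foxm1* was low at 7.81 RPF CPM, *Spc24* high at 18.9 total RNA CPM, and the log2 ratio of RPF to total RNA of *Cdc20* low at -0.0017. In KM_NTC, the same ratio of *Aurka* was low at 0.46 in replicate 4, and *Aurkb* was low at 17.3 total RNA CPM in replicate 1.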

How the results depend on the processing

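The median log2 fold change of the 60 genes stayed below 0 in RPFs and in total RNA under every alternative run, from -0.47 to -0.21 and from -0.48 to -0.23, and moved by less than the spread between pairs. The number of genes called lower depended on the design. Without the replicate block it was 0 in RPFs, 0 in total RNA and 0 in footprints per mRNA, as for all genes. With libraries scaled by size alone it was 30 in RPFs and 24 in total RNA, while the median of all genes shifted to -0.14 and -0.15. At a threshold of 0.05 it was 8 in RPFs and 0 in total RNA. Without a filter on low counts it was 14 in total RNA and 1 (*Aurka*) in footprints per mRNA, as it was 1 (*Aurka*) there with a minimum of 50 counts and 1 (*Ccnb1*) with the RPF isoform only. Leaving out each replicate in turn gave 0 to 30 genes lower in RPFs, 0 to 1 higher (*Mki67*) and 0 to 36 lower in total RNA. In footprints per mRNA it gave 0 to 1 lower (*Aurka*) and 0 to 3 higher (*Cenpf*, *Mki67* and *Racgap1*). The highest counts were all without replicate 4, where 14.3% of all genes fell in RPFs, 19.1% rose there, and 12.0% fell in total RNA. In footprints per mRNA 2.90% of all genes then fell and 5.04% rose. The shares among the 60 genes, 1.67% and 5%, were no higher. The cause was not tested.

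Single genes were followed under the alternatives for the 31 named by rule, and among these signs turned for genes near 0 that had not passed. With libraries scaled by size alone the RPF log2 fold change was -0.094 for *Incenp*, -0.093 for *Mki67*, -0.089 for *Smc4* and -0.11 for *Spc25* (-0.021 with upper-quartile scaling), that in total RNA was -0.011 for *Plk4* and -0.073 for *Spc24*, and footprints per mRNA were 0.0065 for *Hmmr*. With the RPF isoform only, footprints per mRNA of *Cdk1* were -0.059. Leaving out each replicate, RPF values spanned -0.34 to 0.057 (*Hmmr*), -0.10 to 0.15 (*Incenp*), -0.30 to 0.074 (*Kif15*), -0.28 to 0.50 (*Mki67*), -0.19 to 0.17 (*Smc4*) and -0.20 to 0.17 (*Spc25*). Total RNA spanned -0.28 to 0.043 (*Bub3*), -0.15 to 0.10 (*Incenp*), -0.23 to 0.055 (*Kif15*), -0.29 to 0.14 (*Mki67*), -0.25 to 0.12 (*Smc4*) and -0.15 to 0.26 (*Spc24*). Footprints per mRNA spanned -0.20 to 0.0015 (*Bub3*), -0.022 to 0.11 (*Cdk1*), -0.13 to 0.10 (*Hmmr*), -0.075 to 0.21 (*Kif15*) and -0.0174 to 0.36 (*Mki67*). Of the 31 genes, 15 RPF calls and 5 total RNA calls were lost without the block, and all were also lost without replicate 2 or replicate 3. Without replicate 1, 8 and 4 of them were lost. At these depths *Spc24* rests on as few as 3 counts in a library, so its ratios are imprecise.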
